A study of Zea mays with 144 samples.

Results

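H+-PPase, HAK1 and PMP3, 3 maize genes of ion transport and of the plasma membrane, were followed through anther development. They encode a vacuolar proton pump, a potassium transporter and a small membrane protein. The genes were matched by symbol or synonym to 7 of the 12160 features of a spotted cDNA array. H+-PPase, also listed as vpp1, has the 3 features 3332, 6196 and 7018. HAK1 has the single feature 8309, and PMP3, also listed as ZmPMP3, has the 3 features 3774, 6005 and 7219. Earlier results of these data were known when the genes were chosen. HAK1 was selected on its rise between the first and the last stage in upper florets, and PMP3 is taken as selected on its floret difference averaged over stages, where 2 of its features were among the 10 largest, so these values are given as descriptions without a test. Which value had singled out feature 3332 is not known, so all stage values of H+-PPase are treated in the same way.

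H+-PPase is a single-polypeptide pump that uses the energy of pyrophosphate to move protons into the vacuole, beside the larger V-type ATPase. The proton gradient it helps to build drives the uptake of sugars, ions and other solutes into the vacuole, and removing pyrophosphate favours biosynthetic reactions in growing cells. Transporters of the HAK family carry potassium into plant cells, often against a concentration gradient, and potassium is the main osmotic cation of expanding cells. PMP3 proteins are very small hydrophobic proteins of the plasma membrane, known in yeast for their effect on membrane potential and in plants for induction by cold and salt. Inside the anther, meiocytes give rise to tetrads of haploid cells, which are released as microspores and enlarge while they form a vacuole, next to the nursing tapetum and the other wall layers.

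The anthers came from the maize inbred line Ky21 and from the upper or the lower floret of the spikelet. Under the light microscope they had been sorted into 6 stages. The first 3 cover meiosis, from meiocyte through dyad/tetrad, which is a mixture, to tetrad. The last 3 are early microspore, mid-microspore and mid/late microspore, of which the last is again a mixture. Each of the 12 combinations of stage and floret had 2 RNA pools, 24 in all, and each pool joined RNA of one or more plants and was amplified before labelling. Pools carry the number 1 or 2, which divides them into 2 sets, and each of 48 slides compared 2 pools of 1 set, so that every pool was on 4 slides. All groups share the inbred line, and the labels name no treatment. Whole anthers were sampled, so more cells of a type and more RNA per cell cannot be told apart.

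Pool values are log2 ratios to the set's mean over 12 pools, averaged over a low, a medium and a high scan of each slide. Such values compare pools within a feature and give no level of one gene against another. That the deposited logs are natural logs was inferred from repeated values. The numerator of the ratios is not in the labels, and every direction given here is at most likely. Stage slides were read as Cy5 over Cy3, with which the 5 features of meiotic genes had a median log2 ratio of -1.36 from the first to the last stage in upper florets and -1.09 in lower florets. Of these 5 features, 4 fell in upper and 3 in lower florets, beside 13.5% of all features called lower in each floret. Slides that compare florets were used as deposited, as upper over lower floret. Turning the sign of all slides exchanges every higher and lower. Differences were tested with limma. Calls were made below an adjusted p of 0.05 (Benjamini-Hochberg over all features). With 2 pools a group, these p-values rest on a spread between pools that is shared over the 12 groups. Pool values of a set also share slides, which the fit does not model. Where pools are said not to overlap, this describes the feature, and the share of all features with the same separation was not counted. Of the other marker lists, the tapetum list rests on 1 feature, and the 8 features of green tissue genes had a median log2 ratio from the first to the last stage of 1.37 in upper and 1.57 in lower florets. In each floret 5 of these 8 features rose and 1 fell, with a range of -1.79 to 2.58 in upper and -1.73 to 2.96 in lower florets. Over all features, 13.2% were called higher in upper and 14.3% in lower florets. The tapetum feature ms23 rose in lower florets by 0.74 (adjusted p = 0.0392) and differed in upper florets by 0.60 (adjusted p = 0.0877). The 3 features of kernel genes, a tissue not sampled, had medians of 0.71 in upper and 1.38 in lower florets, with 0 and 1 called higher. The 4 features of pollen genes ranged from -0.68 to 1.80 in upper florets, with 1 called higher. In lower florets they ranged from -1.03 to 1.47, without a call. The part of changing tissue composition in the values of the 7 features was not tested.

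H+-PPase RNA had its lowest mean at early microspore in both florets by features 3332 and 7018, and in upper florets by feature 6196, whose lower floret mean was lowest at mid/late microspore. In both florets all 3 features stood about 1 log2 unit lower at early microspore than at tetrad. Features 3332 and 7018 stood higher again at mid-microspore, and feature 6196 by less. The meiotic means lay above the microspore means for features 3332 and 6196 in both florets and for feature 7018 in lower florets. In upper florets the tetrad mean of feature 7018 was 0.04, beside 0.06 at mid-microspore and 0.05 at mid/late microspore. Feature 3332 stood in upper florets at 0.41 and 0.63 in the meiocyte pools of sets 1 and 2, at 0.27 and 0.37 in dyad/tetrad pools and at 0.36 and -0.04 in tetrad pools. At early microspore it stood at -0.97 and -0.61, and it was back at 0.12 and 0.08 at mid-microspore and at 0.15 and -0.15 at mid/late microspore. The upper early microspore pools of feature 3332 did not overlap with any other upper group. In lower florets feature 3332 was at 0.52 and 0.39 at meiocyte, 0.44 and 0.35 at dyad/tetrad and 0.06 and 0.25 at tetrad. It was at -1.0 and -0.87 at early microspore, -0.10 and -0.29 at mid-microspore and -0.26 and -0.12 at mid/late microspore. The lower early microspore pools were again below every other lower pool. How many features of the array show such gaps was not counted.

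**Figure D1:**
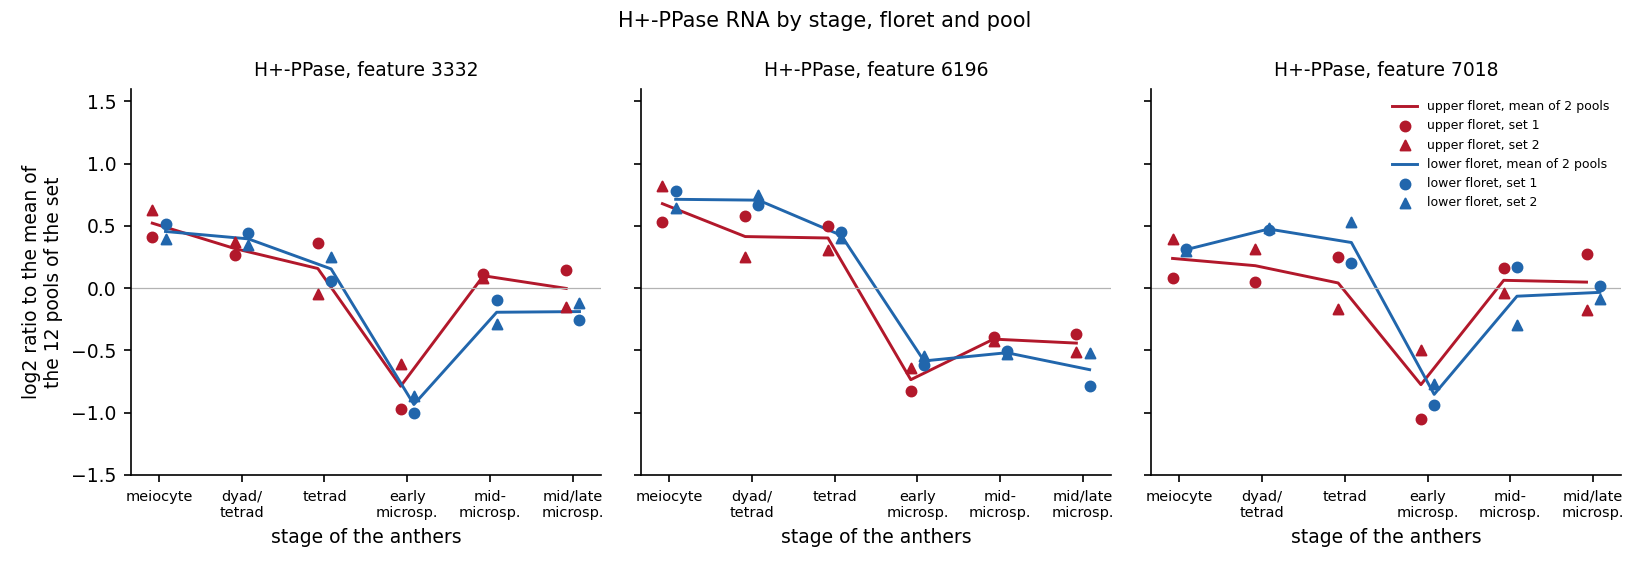
Log2 ratio of the 3 H+-PPase features to the mean of the 12 pools of the set (y axis) by stage (x axis), with 1 point for each pool of set 1 (circles) and set 2 (triangles) and a line through the mean of the 2 pools, red for upper and blue for lower florets. All 3 features are low at early microspore; features 3332 and 7018 return towards 0 at mid-microspore while feature 6196 stays at about -0.4 to -0.7.

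The step from tetrad to early microspore was -0.95 ± 0.18 (SE, n = 2 pools per stage) for feature 3332 in upper florets and -1.09 ± 0.18 in lower florets. It was -1.14 ± 0.16 and -1.01 ± 0.16 for feature 6196, and -0.82 ± 0.24 and -1.22 ± 0.24 for feature 7018. The step had the same sign in both sets of pools for all 3 features and both florets. Its size differed between the sets in upper florets, with -1.33 in set 1 and -0.56 in set 2 for feature 3332, and -1.31 and -0.33 for feature 7018. Without the upper early microspore pool of set 1, the upper step of feature 7018 was -0.46, and without the upper tetrad pool of set 1 it was -0.55. Over the array, 0.905% of features were called lower at this step in both florets. Features 3332 and 6196 passed that threshold in both florets and feature 7018 in lower florets, which is no test, since stage values took part in the choice of the gene.

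The features of H+-PPase parted after the early microspore stage. From early to mid-microspore, feature 3332 differed by 0.89 ± 0.18 on the log2 scale in upper and 0.74 ± 0.18 in lower florets, and feature 7018 by 0.84 ± 0.24 and 0.79 ± 0.24. For feature 6196 the differences were 0.33 ± 0.16 and 0.07 ± 0.16. By the last stage, feature 6196 differed from its meiocyte value by -1.12 ± 0.16 in upper and by -1.37 ± 0.16 in lower florets, which is 2.17-fold and 2.58-fold. For feature 3332 this difference was -0.52 ± 0.18 in upper and -0.64 ± 0.18 in lower florets. The upper value was -0.34 without set 2's mid/late microspore pool and -0.28 in high scans alone, and the lower value was -0.43 in high scans. Feature 7018 gave -0.19 ± 0.24 and -0.34 ± 0.24, and its upper value turned to 0.05 when set 2's upper pool of that stage was left out.

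Feature 6196 therefore ended well below its start. Its upper pools were at 0.53 and 0.82 at meiocyte and at -0.37 and -0.51 at mid/late microspore. Its lower pools were at 0.78 and 0.65 at meiocyte and at -0.79 and -0.52 at mid/late microspore. All 12 of its pools of the meiotic stages lay above 0, and all 12 of the microspore stages lay below 0. The share of features with such a separation was not counted, and stage values took part in the choice of the gene. Over the 24 pools, Pearson's r between features 3332 and 7018 was 0.94, that between 3332 and 6196 was 0.82 and that between 6196 and 7018 was 0.71, as a description of pools that share slides. The difference between the features itself was not tested.

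No floret difference was shown for H+-PPase. The average of upper minus lower floret over the 6 stages was 0.10 ± 0.07 for feature 3332, -0.03 ± 0.06 for feature 6196 and -0.07 ± 0.10 for feature 7018. None of the 3 was called (limma, adjusted p = 0.313, 0.767 and 0.644), while 13.8% of all features were called higher and 12.9% lower in upper florets. On the 24 slides that compare florets, the ratio was below 0 on 8 slides for feature 3332, on 13 for feature 6196 and on 12 for feature 7018. At single stages, the floret differences of the 3 features lay between -0.32 and 0.29, and none was called, against 0.14% of features called at 1 stage or more. A p above the threshold does not show that the florets were equal.

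HAK1 RNA was highest at the last stage in both florets, and its course up to there differed in the means of the florets. In upper florets its pools stayed near the bottom of the range until tetrad and were higher from early microspore on. In lower florets the pools up to tetrad were scattered around or below 0, those of early microspore were low, and the increase came at the last 2 stages. The upper pools of sets 1 and 2 were at -1.62 and -0.95 at meiocyte, at -1.29 and -0.85 at dyad/tetrad and at -0.98 and -1.14 at tetrad. They were at -0.35 and 1.12 at early microspore, at 0.86 and 0.67 at mid-microspore and at 1.71 and 1.57 at mid/late microspore. The 6 upper pools up to tetrad were all below the 6 upper pools of the microspore stages, and the 2 early microspore pools lay far apart. Upper stage values took part in the choice of HAK1, so this order is a description, and the share of features with it was not counted. The lower pools were at 0.64 and -1.01 at meiocyte, at -0.37 and -0.59 at dyad/tetrad and at -0.06 and 0.21 at tetrad. They were at -1.18 and -0.47 at early microspore, at 0.81 and 0.02 at mid-microspore and at 1.83 and 1.43 at mid/late microspore. The 2 lower meiocyte pools spanned more than any other group, and the last stage was above all other lower pools.

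**Figure D2:**
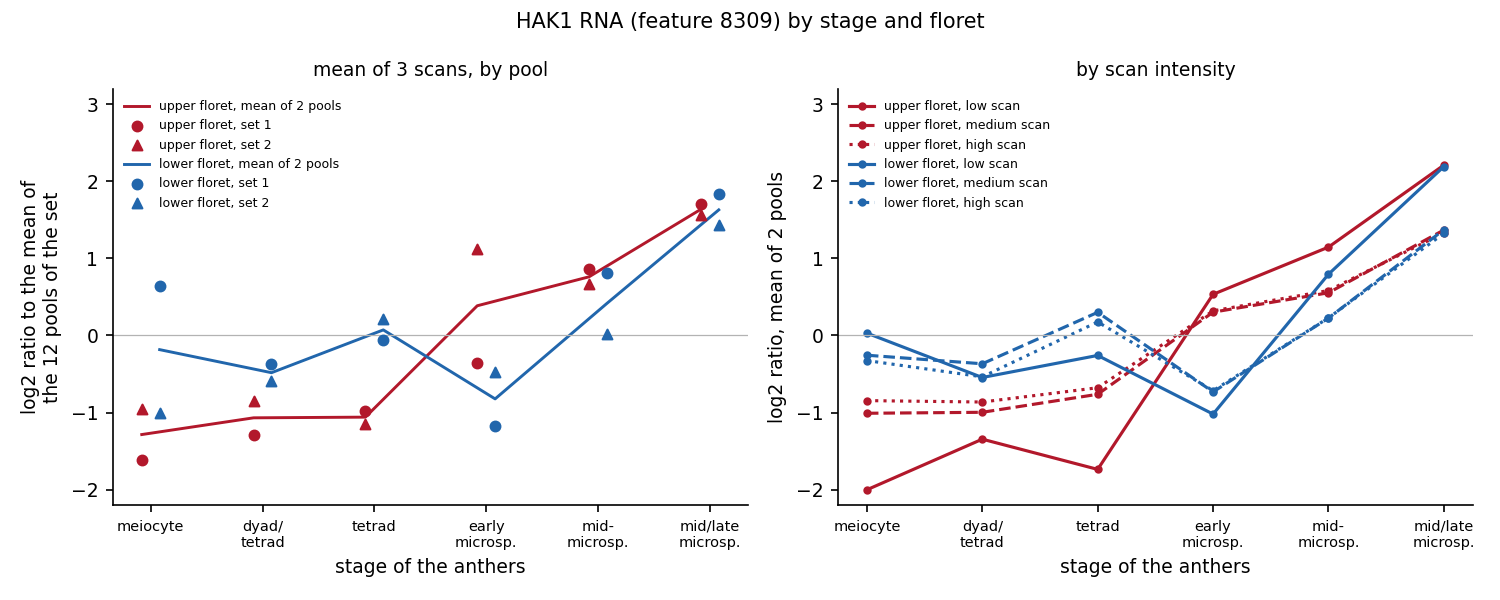
Left, log2 ratio of HAK1 (feature 8309) to the mean of the 12 pools of the set by stage, with 1 point per pool and a line through the mean of 2 pools, red for upper and blue for lower florets. Right, the mean of 2 pools when a single scan intensity is used; the low scan spans more than the medium and high scans, which nearly coincide.

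From meiocyte to mid/late microspore, HAK1 differed in upper florets by 2.92 ± 0.51 (SE, n = 2 pools per stage) on the log2 scale, a 7.59-fold difference, with 3.33 in set 1 and 2.51 in set 2. This value took part in the choice of the gene and is a description; in this comparison 13.2% of features were called higher. In lower florets HAK1 rose by 1.81 ± 0.51 or 3.52-fold (limma, adjusted p = 0.0178), with 1.19 in set 1 and 2.43 in set 2, where 14.3% of all features were called higher. Upper and lower pool values were fitted together through the floret slides, so the lower tests of HAK1 are not independent of its choice. From stage slides alone, which do not join the florets, the lower rise was 2.09 (limma, adjusted p = 0.0209). The lower call was lost without the meiocyte pool of set 2 (0.95, adjusted p = 0.211) or without either mid/late microspore pool (1.44 and 2.07, adjusted p = 0.194 and 0.0522). The effect of stage over all 6 stages in lower florets was called for HAK1 (limma F test, adjusted p = 0.0180), as for 37.5% of all features. None of the 5 single steps of HAK1 in lower florets was called, the largest being 1.24 ± 0.51 from early to mid-microspore (adjusted p = 0.286) and 1.21 ± 0.51 from there to mid/late microspore (adjusted p = 0.299). At least 1 of the 5 steps was called in lower florets for 10.9% of features.

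The size of the HAK1 floret differences around the step from tetrad to early microspore depended on how the floret slides were read. As the floret slides were read here, HAK1 differed by 1.45 ± 0.51 over this step in upper florets (0.62 in set 1 and 2.27 in set 2) and by -0.90 ± 0.51 in lower florets (-1.11 and -0.68). Upper minus lower floret was -1.13 ± 0.51 at tetrad and 1.21 ± 0.51 at early microspore. On the slides that compare florets at early microspore, the ratio was above 0 on all 4 slides, at 0.85 and 0.87 in set 1 and at 1.53 on both slides of set 2. At tetrad it was -1.41 and -0.07 in set 1 and -1.28 and -1.29 in set 2. With the floret slides turned to Cy5 over Cy3, the step was 0.60 in upper and -0.05 in lower florets, and upper minus lower was -0.12 at tetrad and 0.52 at early microspore. The upper step also rested on the early microspore pools, at 2.22 without that of set 1 and 0.59 without that of set 2. The early microspore slides as deposited stood above the tetrad slides in both sets, though the floret difference was called neither at early microspore (adjusted p = 0.375) nor at tetrad (adjusted p = 0.412). The interaction of floret and stage over all stages was not called for HAK1 (limma F test, adjusted p = 0.999968, unadjusted p = 0.0406). For HAK1 this is no test, since upper stage values took part in the choice of the gene. The interaction was called for 0% of all features, with 270 features or 2.22% at an unadjusted p under 0.05, and for 1 feature when low scans alone were used.

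At the last stage HAK1 stood at nearly the same value in both florets, 1.64 ± 0.10 (SD, n = 2) in upper and 1.63 ± 0.29 in lower florets. Averaged over stages, HAK1 had an upper minus lower difference of -0.21 ± 0.21 (adjusted p = 0.491), with -0.56 in set 1 and 0.14 in set 2. The meiocyte slides of set 1 were at -1.89 and -3.41, those of set 2 at 0.23 and 0.04, so the floret difference of HAK1 at meiocyte was set by 1 set of pools. In the order of the 12 groups, the 2 mid/late microspore groups came first and did not overlap with the next, upper mid-microspore. Each of the other groups overlapped with its neighbour in this order, down to upper meiocyte with the lowest mean, -1.29 ± 0.48.

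The size of the HAK1 rise moved with the scan. In upper florets the last minus the first stage was 4.22 in low scans alone, 2.38 in medium scans and 2.18 in high scans, and 2.34 with the median of the 3 scans. On the slides that compare these 2 stages directly, the upper ratio was 3.06, 2.03 and 1.89 in set 1 from low to high scan, and 4.47, 1.93 and 1.92 in set 2. The medium and high scans of both sets thus lay within a narrow range around 2, and the low scans above it. In low scans a mean of 9.86% of features stood at the most repeated value of the scan, against 2.01% in medium and 0.374% in high scans. HAK1 stood there in 2 of 48 low scans, 1 medium and 0 high scans. The SD of HAK1 over the 24 pools was 1.53 in low, 0.88 in medium and 0.83 in high scans, beside a median over all features of 0.44, 0.35 and 0.31. The part of such repeated values in the HAK1 result was not tested.

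**Figure D3:**
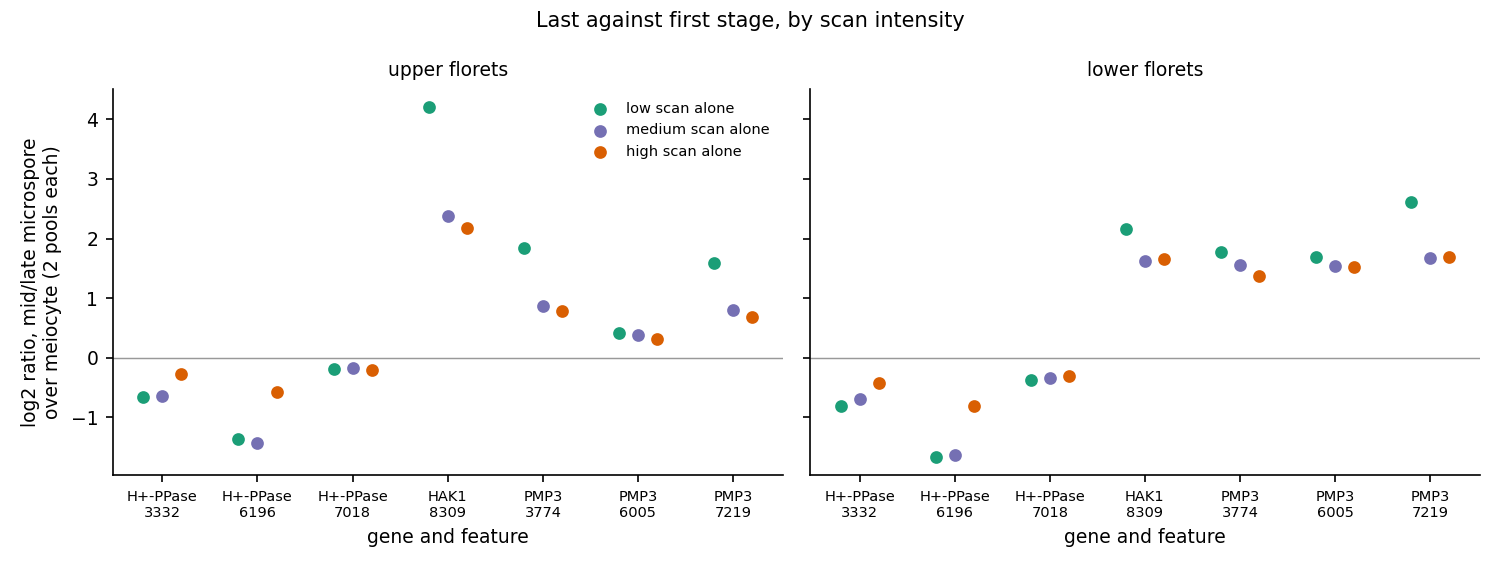
Log2 ratio of mid/late microspore over meiocyte pools (y axis, 2 pools each) for the 7 features (x axis), from low, medium or high scans alone, in upper (left) and lower florets (right). The low scan gives the highest HAK1 and PMP3 values, and the high scan brings H+-PPase feature 6196 nearest to 0.

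Features 6196 and 3332 of H+-PPase also had their smallest differences in high scans. Feature 6196 differed between the last and the first stage by -1.36 in low, -1.42 in medium and -0.58 in high scans in upper florets, and by -1.67, -1.63 and -0.80 in lower florets. On the upper slide of set 1 that compares these stages directly it was at -0.93, -1.03 and 0.01. The high scan therefore showed about no difference on that slide where the other scans showed one. Feature 3332 gave -0.65, -0.64 and -0.28 in upper and -0.81, -0.70 and -0.43 in lower florets. Feature 7018 changed little between scans, with -0.18, -0.18 and -0.21 in upper florets. No H+-PPase feature stood at the most repeated value of any scan. Saturation of bright spots was not tested, since signals are not used here.

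Mean PMP3 values were higher in lower than in upper florets at every stage, and from the first to the last stage PMP3 rose in lower florets. All 3 features gave this picture. Feature 7219 was in upper florets at -1.62 and -0.71 in the meiocyte pools of sets 1 and 2, at -0.62 and -0.91 at dyad/tetrad and at -0.69 and -0.31 at tetrad. It was at -0.21 and -0.18 at early microspore, at 0.28 and 0.14 at mid-microspore and at 0.05 and -0.33 at mid/late microspore. The upper pools were highest at mid-microspore. In lower florets feature 7219 was at -0.74 and -0.24 at meiocyte, at 0.76 and -0.46 at dyad/tetrad and at 0.23 and -0.17 at tetrad. It was at 0.38 and 0.69 at early microspore, at 0.83 and 0.82 at mid-microspore and at 1.35 and 1.65 at mid/late microspore. The lower microspore pools stood in stage order without overlap, while the dyad/tetrad pools lay far apart. How many features of the array show such an order was not counted.

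**Figure D4:**
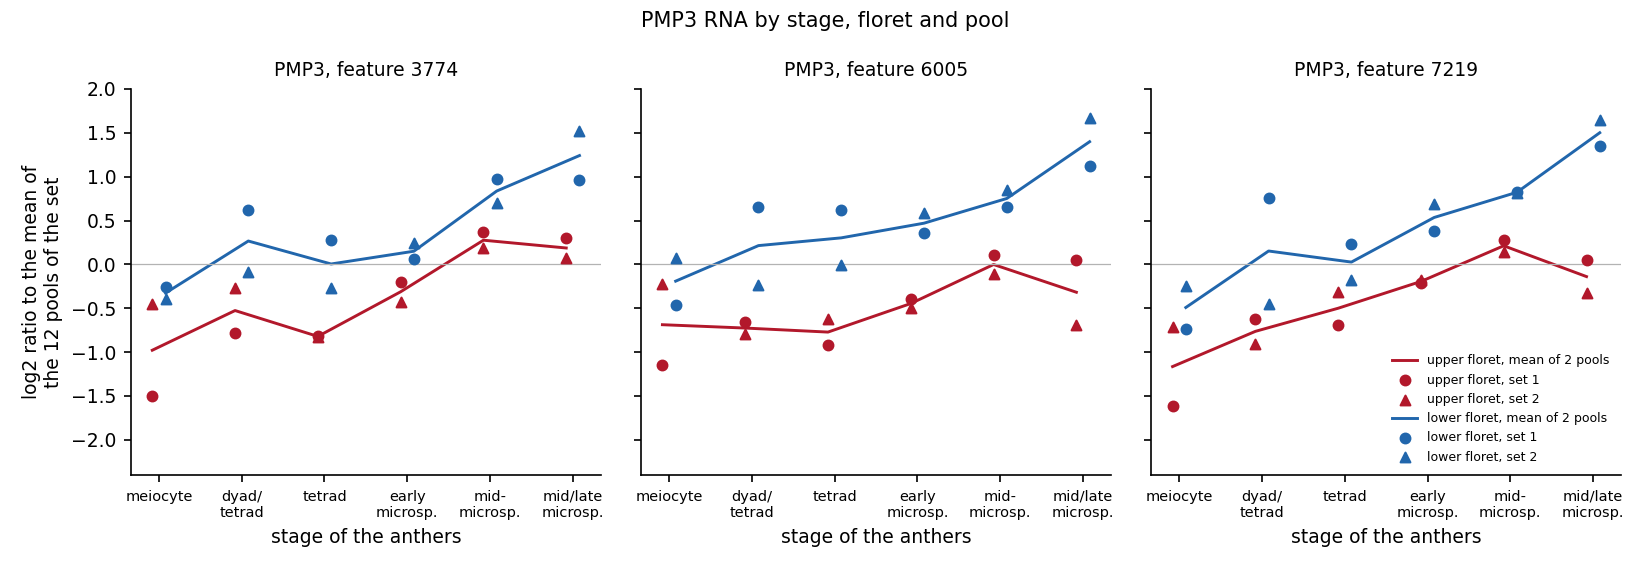
Log2 ratio of the 3 PMP3 features to the mean of the 12 pools of the set by stage, with 1 point per pool (circles for set 1, triangles for set 2) and lines through the mean of 2 pools, red for upper and blue for lower florets. The blue line lies above the red line at all 6 stages for each feature, and the gap is widest at mid/late microspore.

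From meiocyte to mid/late microspore, all 3 PMP3 features rose in lower florets, where 14.3% of all features were called higher. Feature 3774 rose by 1.57 ± 0.33 on the log2 scale (adjusted p = 0.00327), feature 6005 by 1.59 ± 0.36 (adjusted p = 0.00558) and feature 7219 by 1.99 ± 0.36 (adjusted p = 0.00114), which are 2.96-fold, 3.01-fold and 3.98-fold. In upper florets feature 3774 rose by 1.17 ± 0.33 (adjusted p = 0.0182) and feature 7219 by 1.03 ± 0.36 (adjusted p = 0.0483), and feature 6005 differed by 0.37 ± 0.36 (adjusted p = 0.492), beside 13.2% of all features called higher. Both sets had the same sign in lower florets for all 3 features. In upper florets the rise was larger in set 1, with 1.81, 1.20 and 1.67 for features 3774, 6005 and 7219, than in set 2, with 0.53, -0.46 and 0.38. Without the upper meiocyte pool of set 1 the upper calls were lost, at 0.66 for feature 3774 (adjusted p = 0.223) and 0.50 for feature 7219 (adjusted p = 0.458). Leaving out either upper mid/late microspore pool also ended both upper calls. The upper call of feature 3774 was lost in 5 of 17 alternatives in all, among them low scans alone (1.84, adjusted p = 0.0912) and scans scaled to 1 spread (0.73, adjusted p = 0.150). That of feature 7219 was lost in 9 of 17.

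The effect of stage over all 6 stages was called in lower florets for all 3 PMP3 features (limma F test, adjusted p = 0.0142, 0.0377 and 0.00734 for features 3774, 6005 and 7219). In upper florets it was called for feature 3774 (adjusted p = 0.0275), and not for feature 6005 (adjusted p = 0.413) or 7219 (adjusted p = 0.0587). The upper background was 37.5% of features as well. No single step between neighbouring stages was called for any PMP3 feature in either floret, while at least 1 step was called for 9.92% of features in upper florets. Upper and lower changes from first to last stage differed by -1.22 ± 0.52 for feature 6005 (adjusted p = 0.999991), so a difference between the florets in this rise was not shown.

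Averaged over the 6 stages, upper minus lower floret was -0.72 ± 0.13 for feature 3774, -0.98 ± 0.15 for feature 6005 and -0.85 ± 0.15 for feature 7219, or 1.65-fold, 1.98-fold and 1.80-fold. These values took part in the choice of PMP3 and are a description. Among named features called lower in upper florets and of 1 sign in both sets, 6005 ranked 5 and 7219 ranked 7, inside the limit of 10, and feature 3774 ranked 13, outside it. Both sets gave negative averages, with -0.88 and -0.57 for feature 3774, -0.99 and -0.98 for feature 6005 and -0.93 and -0.76 for feature 7219. A shared sign was a condition of the ranking, so for ranked features it was fixed in advance and is no replication. Set 2 by itself carried the largest single difference, -2.36 for feature 6005 at mid/late microspore, where set 1 was at -1.08. Of the 8 green tissue features, 3 were called lower in upper florets on this average, rbcS feature 9047 with -0.63, CAB1 with -0.53 and psaH feature 2249 with -0.43, and cab-m1 feature 8159 was called higher with 0.46. Their median was -0.29, and rbcS feature 9047 was among the 5 features most similar to PMP3 feature 3774 over the 24 pools (r = 0.88). Over all features, 12.9% were called lower and 13.8% higher in upper florets on this average. The tapetum feature ms23 was called higher, with 0.37 (adjusted p = 0.0161). The part of these tissues in the PMP3 result was not tested.

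By stage, the floret difference of feature 7219 was -0.67 at meiocyte, -0.92 at dyad/tetrad, -0.53 at tetrad, -0.73 at early microspore, -0.61 at mid-microspore and -1.64 at mid/late microspore, each with an SE of 0.36. The last stage was the lowest for the other features as well, at -1.05 for 3774 and -1.72 for 6005. On the slides that compare florets, the ratio of PMP3 was below 0 on 22 of 24 slides for feature 3774, on 23 for feature 6005 and on 24 for feature 7219. It was below 0 on 11, 12 and 12 of the 12 slides with the upper pool in Cy5, and on 11, 11 and 12 of the 12 slides with the upper pool in Cy3. As the deposited ratios were read, PMP3 kept its sign when the dyes of the florets were exchanged. These slides also gave the averages that took part in the choice of PMP3, so this is a description. If the deposited ratios were instead all Cy5 over Cy3, the averages would be 0.16, -0.17 and -0.07 for features 3774, 6005 and 7219, and the floret difference would be lost. In that reading the constant sign would go with the dye and not with the floret.

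**Figure D5:**
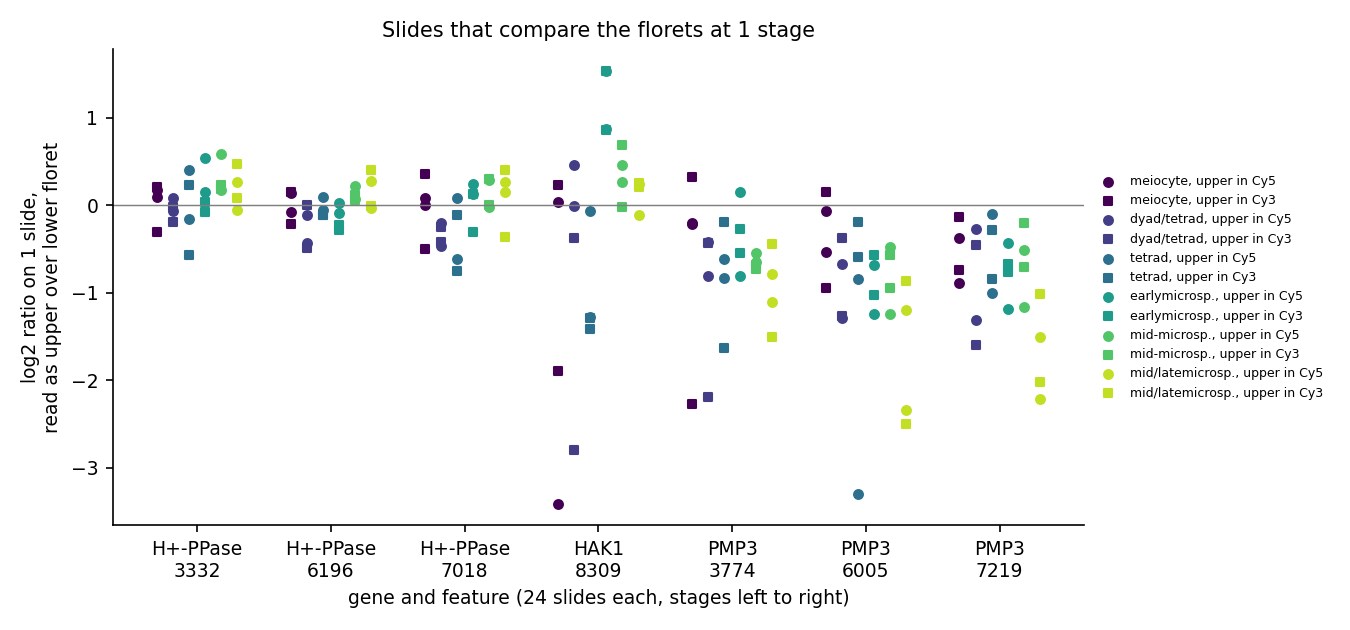
Log2 ratio on each of the 24 slides that compare upper with lower floret at 1 stage (y axis, mean of 3 scans, read as upper over lower) for the 7 features (x axis), with stages from left to right and colours by stage, circles where the upper pool was labelled with Cy5 and squares where it was labelled with Cy3. H+-PPase features scatter around 0, HAK1 spreads from -3.41 to 1.53, and PMP3 features lie below 0 on 22, 23 and 24 slides.

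The single scans agreed for feature 6005 and less for the other PMP3 features. Feature 6005 gave floret averages of -1.01, -0.97 and -0.96 in low, medium and high scans. Feature 3774 gave -1.10, -0.52 and -0.55, and feature 7219 gave -0.99, -0.83 and -0.73. All 9 values were negative. Feature 3774 stood at the most repeated value in 2 low scans, 1 medium and 1 high scan, and feature 7219 in 2 low scans. The upper last minus first value of feature 3774 was 1.84 in low scans but 0.87 and 0.78 in medium and high scans, so this rise too was larger in low scans.

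The 3 PMP3 features followed each other closely over the 24 pools, with r of 0.90 between 3774 and 6005, 0.92 between 3774 and 7219 and 0.94 between 6005 and 7219. With HAK1 they had r of 0.67, 0.45 and 0.55, and with H+-PPase feature 6196 r of -0.54, -0.41 and -0.60. HAK1 had r of -0.58 with feature 6196 and 0.03 with feature 7018. These r describe 24 pools that share slides and stages and carry no test. Over the array, the SD over pools placed HAK1 at the 96.9th percentile of features, PMP3 at the 86.3rd to 90.1st and H+-PPase at the 61.6th to 80.1st.

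Other genes of proton and potassium transport were described beside the members, on 12 features of 8 genes. Of these, 6 features belong to proton pumps: 3 to the second vacuolar pyrophosphatase gene vpp3 and 3 to the plasma membrane H+-ATPase genes mha2 and mha4. The other 6 belong to the potassium transporter genes HAK2, HAK8, HAK15 and HAK25 and the potassium channel gene kch4. From the first to the last stage in upper florets, 1 of the 12 was called higher, mha4 feature 6873 with 1.30 ± 0.28 (adjusted p = 0.00375), against 13.2% of all features. Another 2 were called lower, HAK2 feature 7929 with -0.55 ± 0.19 (adjusted p = 0.0429) and kch4 with -0.51 ± 0.17 (adjusted p = 0.0410), where 13.5% of features were called lower. The other mha4 feature, 2362, differed by 0.17 ± 0.19 in this comparison and was not called (limma, adjusted p = 0.564). In lower florets none was called higher, against 14.3% of all features, and kch4 was called lower, with -0.60 ± 0.17 (adjusted p = 0.0184), against 13.5% of features. The median log2 ratio of the 12 features was -0.03 in upper and -0.003 in lower florets, beside -0.01 and 0.01 over all features.

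HAK1 and PMP3 thus stood outside the range of these genes in lower florets. HAK1 was chosen for its upper rise, so its place beside genes not chosen in that way is a description. None of the 5 other potassium transport genes was called higher, against 13.2% of all features in upper and 14.3% in lower florets. Their 6 features are too few to be set apart from these shares. HAK15, the highest of them, differed by 0.46 ± 0.19 in upper and 0.44 ± 0.19 in lower florets (limma, adjusted p = 0.0862 and 0.101), beside 2.92 and 1.81 for HAK1. The 3 vpp3 features differed between the first and the last stage by -0.32 to 0.14 over both florets, without a call. In upper and lower florets H+-PPase feature 6196 gave -1.12 and -1.37, and feature 3332 gave -0.52 and -0.64. Feature 7018, with -0.19 and -0.34, was close to the vpp3 features. In the average of florets, 3 proton pump features were called higher in upper florets, mha2 by 0.33 ± 0.10 (adjusted p = 0.0283), mha4 feature 2362 by 0.22 ± 0.08 (adjusted p = 0.0480) and vpp3 feature 2667 by 0.16 ± 0.05 (adjusted p = 0.0402), and none was called lower, against 13.8% of all features called higher and 12.9% lower. With the floret slides turned, these 3 values were -0.08, 0.17 and 0.01, none was called, and 1 feature of the array was called in all. As read here, mha4 feature 6873 had a floret average of -0.03 ± 0.11 (limma, adjusted p = 0.856). The 2 features of mha4 thus had unlike calls in both comparisons, and the difference between them was not tested. No other gene of the PMP3 type was matched. Whether related genes of a family share signal on these cDNA spots was not tested.

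The features with the most similar course were looked up among features of other named genes, by Pearson's r over the 24 pools. For HAK1 they were the lactate dehydrogenase gene LDH (r = 0.86), LIM6 (0.86), kik1 (0.85), the glutathione transferase gene gst19 (0.85) and the sucrose phosphate synthase gene SPS (0.84). Features 3332 and 7018 of H+-PPase were most like features of the translation elongation factor gene EF1-A (0.91 and 0.88), and feature 6196 was most like the ribosomal protein gene RP-P0 and the tubulin gene TUBC (both 0.94). The protein phosphatase gene PP2C24 (0.94) also stood near the head for feature 6196. For PMP3, the transcription factor gene Dof1 headed the list of feature 3774 (0.90), CNR08 that of feature 6005 (0.90) and dbf1 that of feature 7219 (0.92), and Dof1 and the TIFY gene TIFY2 were among the 5 most similar of each PMP3 feature. These r share pools, slides and scans.

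Similarity also followed the numbering of the features. H+-PPase feature 3332 had r of 0.90 with feature 3331 of gst7, and feature 6196 had r of 0.97 with feature 6195, whose gene carries no name beyond its locus. HAK1 had r of 0.71 with the feature numbered before it and -0.07 with the one after, and PMP3 feature 3774 had 0.79 and -0.41. From tetrad to early microspore in upper florets feature 6195 had -0.89, beside -1.14 for feature 6196. Over the array, features with neighbouring numbers had a median r of 0.21 and 11.6% of pairs were above 0.7, against 0.02 and 3.03% for features 100 numbers apart. For PMP3 features 6005 and 7219, the preceding features had r of 0.10 and 0.38 and the following ones 0.24 and -0.315. The feature after 6005, number 6006 of the expansin gene expa2, had a floret average of -0.88, beside -0.98 for feature 6005. The layout of the slide is not used here, and the part of position in the values of H+-PPase and PMP3 was not tested.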

How the data were processed

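Two-colour spotted cDNA arrays compared 24 RNA pools on 48 slides, each scanned at 3 intensities, and the pool was the replicate. Per the labels, RNA was amplified with a T7-based method before Cy3 or Cy5 labelling. The deposited values are natural log ratios of the channels, processed by the authors to medians between -0.0252 and 0.0327 per scan. The software of that step is not named in the labels. Spot signals are not used here, and the number of pools limits the precision. The base was read from repeated values in 47 low scans, where distances between them matched whole-number ratios 63 times if read as natural logs, 0 times as log2 and 5 times as log10.

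These logs were converted to log2, centred on each scan's median and averaged over scans. Pool values were fitted by least squares within each set (MASS 7.3.60.0.1, R 4.3.3). limma 3.58.1 was fitted to all 12160 features with 12 groups and a term for the set of pools, with 11 residual degrees of freedom, and Benjamini-Hochberg adjustment covered all features, with steps together and stages together within a question. The fit was tested on simulated data. The set is a block because the 2 sets share no slide: a pool value is defined within its set, so the pairing comes from the design of the slides. No column of values lacked a sample.

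Turning the floret slides to Cy5 over Cy3 is kept as an alternative. Stage and floret slides that form 10 closed squares had r of 0.27 to 0.48 across features as deposited and -0.05 to 0.05 when turned, and dye swaps had r of 0.16 to 0.57, so these slides were used as deposited, a choice made with the values known.

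The members, the lists and the tests were chosen with earlier results of these data known. All member features are named. Of the other transport genes, up to 3 called features per direction and comparison are named, and others where a comparison turns on them. The 5 most similar features of named genes were looked up for each member feature. HAK8, HAK15, HAK25 and kch4 were added from the annotation's names. Of the features, 6412 had 1 gene in the array annotation, 214 several and 5534 none. No sequences or coordinates are given. Alternatives covered scans, centring, scaling, a filter, direction, slides used, the set term, robust eBayes and each pool left out. Plots used Python 3.11.15 and matplotlib 3.10.9.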

Additional observations from a re-analysis of the deposited data

Results flagged for a closer look

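Every step between neighbouring stages was looked at for each of the 7 features. In 4 cases, the step had opposite signs in the 2 florets in every set of pools. None of these 4 differences between florets was called (limma, adjusted p = 0.999999 for each). Upper stage values took part in the choice of HAK1, and all stage values of H+-PPase are treated likewise. For these 2 genes the p-values are therefore no test. The share of all features with such opposite signs was not counted, so the 4 cases are not shown to exceed chance. For HAK1 at the step from tetrad to early microspore, upper minus lower was 2.34 ± 0.72, from 0.62 and 2.27 in upper and -1.11 and -0.68 in lower florets. With the floret slides turned by the dyes it was 0.64, and the upper step was 0.59 without the early microspore pool of set 2 and 2.22 without that of set 1. At the step from mid-microspore to mid/late microspore, PMP3 feature 6005 gave -0.96 ± 0.52, from -0.06 and -0.57 in upper and 0.47 and 0.82 in lower florets. PMP3 feature 7219 gave -1.03 ± 0.51 at that step, from -0.23 and -0.47 in upper and 0.53 and 0.83 in lower florets. With the floret slides turned, these were -0.46 and -0.43. PMP3 floret values took part in the choice of the gene. H+-PPase feature 7018 gave -0.22 ± 0.33 from meiocyte to dyad/tetrad, from -0.03 and -0.09 in upper and 0.15 and 0.18 in lower florets, and -0.02 with the floret slides turned.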

How the results depend on the processing

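The scan changed sizes more than directions. The tetrad to early microspore step of H+-PPase feature 6196 was -1.30 in medium and -0.88 in high scans in upper florets, and in lower florets -1.19 with the median of scans, -1.20 in low, -1.20 in medium and -0.63 in high scans. It was -1.20 with low and medium scans together, a setting chosen after seeing the data. The upper last minus first value of HAK1 was 2.34 with the median of scans, 4.22, 2.38 and 2.18 in low, medium and high scans, 2.25 with scans scaled to 1 spread and 2.28 with medium and high scans together, also chosen after seeing the data. Its lower value was not called in low scans (2.16) or with scaled scans (1.33), nor was PMP3 feature 3774 in low scans (1.77). The floret average of feature 3774 was -1.10 in low scans. With floret slides turned by the dyes, it reversed to 0.16, and those of features 6005 and 7219 were -0.17 and -0.0655. If the deposited ratios are upper over lower floret, turning cancels a floret difference over dye swaps, and if they are Cy5 over Cy3, the reading used here cancels it.

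Leaving out each pool in turn gave -1.13 to -0.77 for the upper step of H+-PPase feature 3332, -1.15 to -0.46 for that of 7018, 0.95 to 2.56 for HAK1 in lower florets and 1.28 to 1.97 for PMP3 feature 6005 in lower florets, where its call was lost without the meiocyte pool of set 1 (adjusted p = 0.104).

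Counts of called features also moved. Florets at each stage gave 17, but 84 with the median of scans, 33 in low scans, 33 with scaled scans, 2 among the more variable features, 0 when turned, 0 with low and medium scans, 10 with medium and high scans and 10 from floret slides alone. Without the set of pools as a block it was 99, and no other count changed by over 1.5 times. The interaction gave 1 in low scans. Scaled scans gave 1376 and 1507 called between last and first stage in upper and lower florets, against 3246 and 3379. The floret average gave 1420 among the more variable features and 1 when turned, against 3252, and neighbouring stages gave 3052 when turned, against 1779. Stage slides alone gave 2504 and 2836 for the stage effect, against 4562 and 4566, 2003 for last against first in upper florets and 531 for neighbouring stages. With a pool left out, last against first gave 1708 to 3161 in upper and 1852 to 3427 in lower florets, neighbouring stages 907 to 1800, florets at each stage 0 to 37 and the interaction 0 to 8.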
